A study of Zea mays with 229 samples.

Results

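HB6 is the name the labels give to a plasmid that carries the maize gene Zm00001d005951, and HB is a family symbol in common use for homeobox transcription factors. Homeobox factors bind DNA through a homeodomain and control developmental and stress programmes in plants. In Arabidopsis, a factor also called HB6 belongs to the homeodomain leucine zipper proteins and acts in the response to abscisic acid, the hormone of drought. The labels do not state a family for the maize plasmid, and a shared name does not show that both genes do the same.

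The members described here are the genes that the authors listed as targets of Zm00001d005951 in their deposited table of edges, where an edge joins a regulator to a gene listed as responding to it. They number 6677 of the 19787 genes listed for at least 1 of 23 regulators, which is 33.7% of those genes. The study introduced plasmids into protoplasts, cells freed of their walls, from leaves of dark-grown seedlings of the inbred B73, and read the messenger RNA of cells sorted for red fluorescence. HB6 was tested in the batch labelled 0116, with 3 libraries labelled plusN and 3 labelled minusN. The controls of that batch were 3 libraries in each nitrogen condition with the empty vector p1107, and the batch also held 6 libraries of bZIP9. In these groups the genotype was B73 throughout and HB6 was carried on a plasmid in transiently transfected cells. The labels do not say whether the replicates were separate preparations of protoplasts.

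The deposited table holds identifiers alone. A listed gene may have risen or fallen, no size or error belongs to an edge, and the nitrogen condition of an edge is not given. The leaf label could not be checked against marker genes, since no level per library was among the files used. All comparisons below describe which genes stood in which lists, and none carries a test. The sources used here do not give the number of genes the authors tested, so each share is of listed genes.

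The HB6 list was the third in length of 23. Its genes stood in 2 runs of consecutive rows, of 1611 and 5066 genes, that had no gene in common. The sources used here do not state what separates the runs. HB6's own gene stood in the shorter run, in row 144. The transcript of the plasmid can be counted as the gene, so this edge does not show that HB6 acts on its own gene. It also says little about the label, since 16 of the 22 other lists held the HB6 gene. Of all genes with 16 other regulators, 88.0% were in the HB6 list. Of the other 22 regulators, 9 had their own gene in the first row of a run.

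HB6 targets were for the most part genes that other regulators listed too. The median HB6 target was listed for 6 other regulators, and the median listed gene outside the HB6 list for 2. This is not particular to HB6. The same median was 5 for the NAC61 and bZIP9 lists and 6 to 12 for the others. The longer run of the regulator Zm00001d003176 also stands in the MYB56 list, and the genes of that run were counted under both regulators. Among the 5326 genes with exactly 1 other regulator, 686 (12.9%) were HB6 targets, and 258 of these had bZIP9 as that regulator. With 5 other regulators the share was 34.4%, near the 33.7% of all listed genes. With 10 it was 66.0% and with 15 it was 84.7%. All 51 genes with at least 19 other regulators were HB6 targets. Zm00001d021935 and Zm00001d036946, listed for all 22 other regulators, stood in rows 2245 and 2319 of the longer HB6 run. These 2 genes were thus not at its head. As a set, genes of many regulators stood toward it. The median number of other regulators was 11 in the first of 5 equal parts and 3 in the last. At the opposite side, 7 of the 61 genes with 18 other regulators were absent from the HB6 list. Of these, Zm00001d013879 was also missing from the lists of bZIP9, NAC66, NAC109 and Zm00001d033859, and Zm00001d014820 from those of EREB115, Orphan42, Zm00001d003176 and Zm00001d032024.

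**Figure D1:**
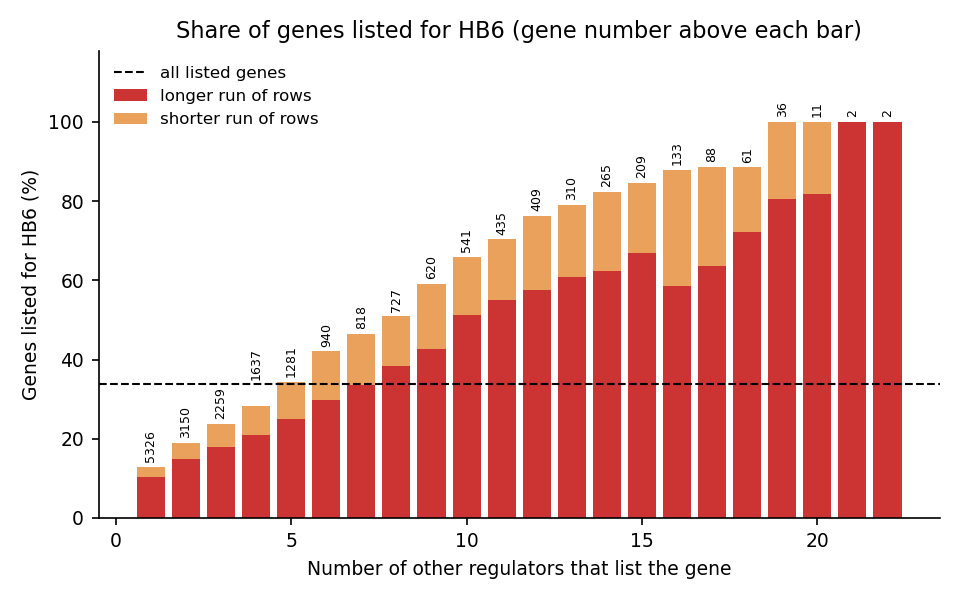
Share of genes listed for HB6 (percent, y axis) against the number of other regulators that list the gene (x axis), with the number of genes above each bar, the 2 runs of HB6 rows stacked and the share over all listed genes dashed. The share goes from 12.9% at 1 other regulator to 66.0% at 10. At 1 other regulator, 258 of the 686 HB6 genes had bZIP9, of the same batch, as that regulator.

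The longest lists were set beside HB6 for this share. Of the 1526 genes with at least 12 other regulators, HB6 listed 1252 (82.0%). For WRKY107, with 6401 targets, the share was 83.1%, and for NAC61, with 8286 targets, it was 82.0%. MYB121, with 6491 targets, listed 76.6% of its 1536 such genes, and NAC5, with 6045 targets, 75.4% of 1539. For bZIP9, with 8080 targets, it was 88.7% of 1501, and for G2, with 5569 targets, 67.7% of 1580. HB6 was thus the third of 23 by this share, after bZIP9 and WRKY107 and with NAC61 at nearly the same value. Of the genes with exactly 1 other regulator, HB6 listed 12.9%. The share was 17.7% for NAC61, 16.8% for bZIP9, 11.01% for MYB121, 10.5% for G2, 9.12% for WRKY107 and 8.72% for NAC5. Of the 686 HB6 genes behind the 12.9%, 258 had bZIP9, with the same empty vector libraries, as that regulator. These 258 also count in the bZIP9 share. The order of the lists without bZIP9 was not computed, so the place of HB6 in it is not read as a result. The bZIP9 targets were 40.8% of the listed genes. Because bZIP9 shares the empty vector libraries of batch 0116, the overlap of its list with that of HB6 is not read as a result.

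Private targets, genes listed for no other regulator, numbered 527 in the HB6 list, 7.89% of it. They made up 10.2% of the 5167 genes listed for exactly 1 of the 23 regulators. By count HB6 was the fifth of 23, and by share the fourth. These ranks count bZIP9, with the same empty vector libraries, among the other lists. Without bZIP9 the HB6 list had 785 private targets, and the other lists were not recounted in that way. Other lists share batches too. NAC61, NAC5, WRKY107 and bHLH92 were in the same batch, and MYB121 was in one with bHLH47, MYB81 and WRKY36. G2 shared a batch with EREB115 and Orphan42. NAC61 had 954 private targets (11.5% of its list), G2 had 607 (10.9%) and MYB121 had 618 (9.52%), all 3 with a higher share than HB6. bZIP9 had 631 (7.81%) and Zm00001d032024 had 356 (7.58%), close below it. At lengths near that of HB6 the share was lower for WRKY107, with 333 private targets (5.20%), and for NAC5, with 341 (5.64%). The median over the other 22 regulators was 2.58%. Longer lists can hold more private genes, and in the plot of private share by list length HB6 stands among the long lists.

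**Figure D2:**
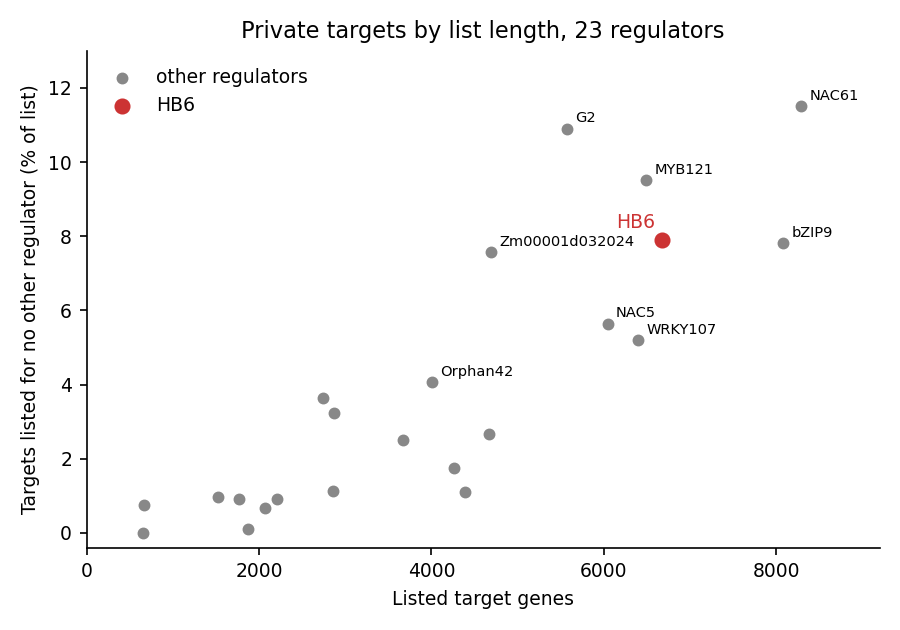
Targets listed for no other regulator (percent of the list, y axis) against the number of listed targets (x axis), 1 point per regulator, with HB6 in red. HB6, at 6677 targets and 7.89%, lies below NAC61, G2 and MYB121 and above WRKY107 and NAC5.

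The private targets did not lie evenly along the longer run. Cut into 5 equal parts by row order, that run had 2.17% private targets in the first part, 7.80% in the third and 15.9% in the last. The median number of other regulators went from 11 in the first part through 5 in the third to 3 in the last. In the shorter run the median went from 9 to 4, and private targets were 6.50% of the first part, 4.35% of the third and 8.39% of the last, with no steady course. Across the genes of a run, row number and number of other regulators had a Spearman correlation of -0.49 in the longer run (5066 genes) and -0.29 in the shorter one (1611 genes). The genes of a run come from the same libraries, and the sources used here do not state what orders the rows. Over whole runs the difference was smaller, with 104 private targets (6.46%) in the shorter and 423 (8.35%) in the longer. Genes of at least 12 regulators, HB6 included, were 23.0% of the shorter run and 23.5% of the longer.

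**Figure D3:**
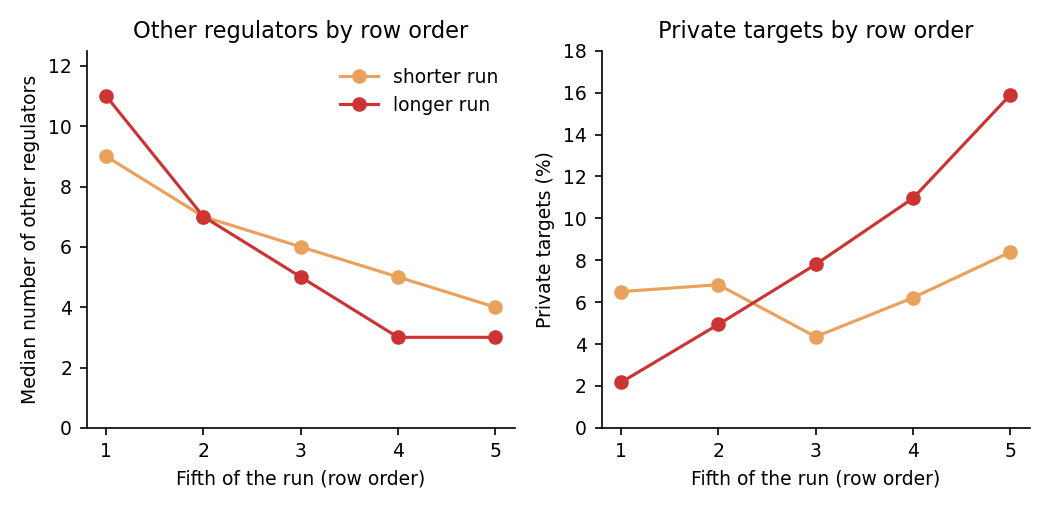
Median number of other regulators (left) and percent of private targets (right), both on the y axis, for 5 equal parts of each HB6 run in row order (x axis). In the longer run private targets go from 2.17% to 15.9%, and in the shorter run they lie between 4.35% and 8.39%.

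How far the HB6 list coincided with other lists was described for 21 regulators, bZIP9 left out. The share of another list that was also in the HB6 list went from 41.3% for NAC61 to 69.4% for Zm00001d033859, with a median of 53.5%, beside 33.7% of all listed genes. The 7 lists of at most 2212 targets all lay at 57.8% or above. Zm00001d003176 shared 1229 genes, 65.7% of its list and 18.4% of the HB6 list. Its longer run of rows also stands in the MYB56 list; in its shorter run, 377 of 535 genes (70.5%) were HB6 targets. GLK44, a Golden2-like factor, shared 1440 genes, 65.1% of its list and 21.6% of that of HB6. NAC66 shared 978, 64.0% and 14.6% of the respective lists. From the side of HB6, NAC61 held the most of its targets, 3424 genes or 51.3%, followed by WRKY107 with 3162 (47.4%) and MYB121 with 2908 (43.6%).

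Genes with many regulators stand in many lists. Each list was therefore also set beside the number of HB6 targets it would hold if each of its genes were listed for HB6 at the share seen at that gene's number of other regulators. The ratio of the observed to this number went from 0.86 to 1.04, with a median of 0.98, above 1 for 7 lists and below 1 for 14. The high end was NAC66, with 978 genes beside 938 (ratio 1.04), and GLK44, with 1440 beside 1383 (ratio 1.04). The low end was bHLH47, a basic helix-loop-helix factor, with 1331 beside 1548 (ratio 0.86), and EREB115, of the family that binds ethylene response elements, with 1320 beside 1441 (ratio 0.92). G2, or Golden2, which controls how chloroplasts develop, had 2550 beside 2553 (ratio 1.00). No error can be given for these ratios. They count bZIP9 among the other regulators, although its list was left out. Summed over all other lists, bZIP9 included, the observed and computed numbers are equal by construction. The 21 lists together thus fall below 1 if bZIP9 lies above it, and their split around 1 is not read as a result. With bZIP9 also left out of the count, the ratios went from 0.87 to 1.06. Their median was 0.99, that of MYB121, and G2 had 1.01. Of the genes that any of the 21 lists shared with HB6, 70.8% to 76.7% stood in the longer HB6 run, where 75.9% of all HB6 targets stood.

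**Figure D4:**
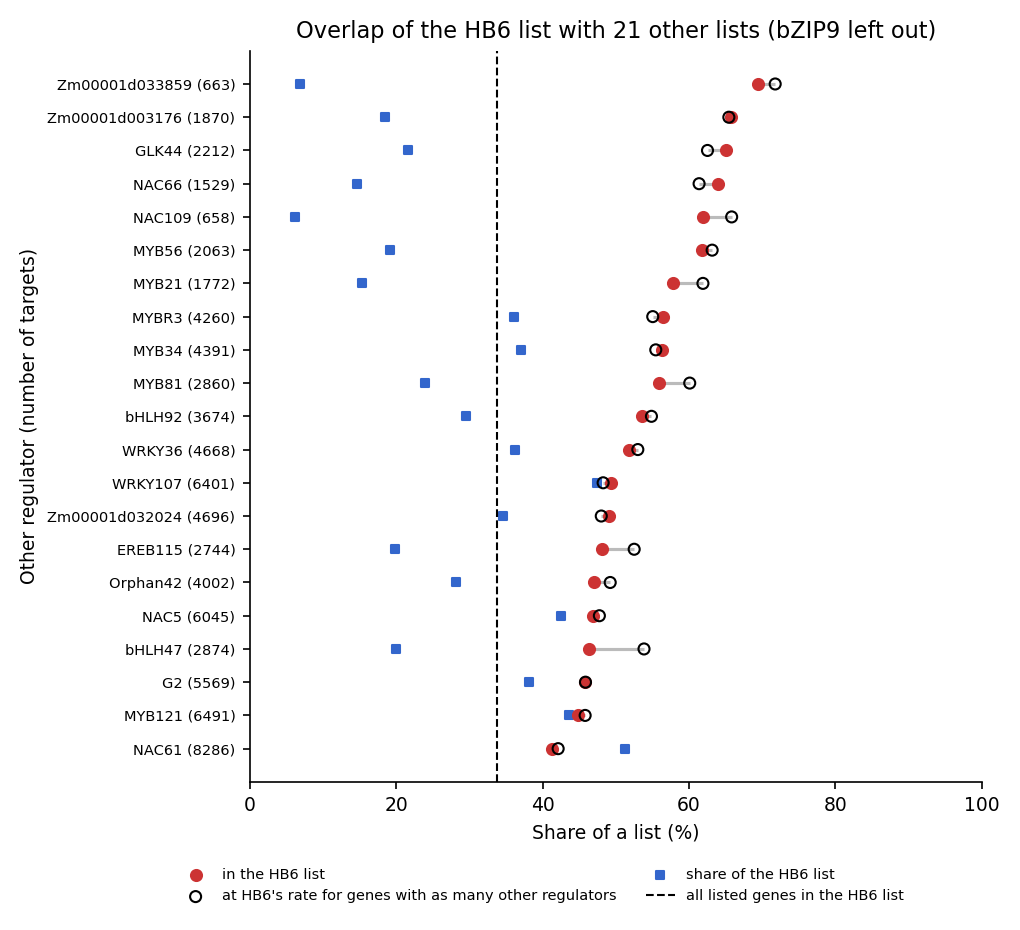
For 21 other regulators, the share of each list that is in the HB6 list (red), the share given by HB6's rate for genes with as many other regulators (open circles) and the share of the HB6 list found in the other list (blue squares), in percent on the x axis. The share goes from 41.3% for NAC61 to 69.4% for Zm00001d033859, and bHLH47 lies farthest to the left of its open circle.

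Of the 686 genes shared between HB6 and exactly 1 other regulator, 428 were shared with one of these 21. The remaining 258 were shared with bZIP9, more than with any other regulator, and because both lists rest on the same empty vector libraries this number is not read as a result. Among the 21, NAC61 held 101 genes, G2 64, MYB121 51, and NAC5 and WRKY107 37 each. As a share of all genes with exactly 2 regulators in the other list, these were 11.2% for NAC61, 11.96% for G2, 9.06% for MYB121, 8.03% for NAC5 and 7.63% for WRKY107. The median over the 21 lists was 7.63%. MYB21, with 6 of 46 such genes (13.04%), had the highest share of the 21 lists, which rests on these 6 genes alone. NAC109, Zm00001d003176 and Zm00001d033859 had none, out of 2, 18 and 10 genes with exactly 2 regulators.

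The recognised genes in the HB6 list were the other regulators of the study. HB6 listed 16 of the 22 (72.7%), beside 33.7% of all listed genes. At the rates of HB6 for genes with as many other regulators, each regulator's own list counted among them, 11.5 of the 22 would be listed. In the opposite direction 16 of the 22 lists (72.7%) held the HB6 gene, where over all listed genes the same lists held 19.7% of the possible pairs of gene and regulator. Regulator genes are listed more often than that. Those of the other 22 regulators stood in a median of 7.5 of the 22 lists besides their own. The other 22 regulators listed a median of 8 regulators each. With 12 regulators the listing went both ways, a number to be read beside 16 of 22 in either direction.

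By family, all 4 NAC factors, a group known for roles in senescence and stress, listed HB6 and were listed by it. Lists other than that of HB6 held NAC5, NAC61, NAC109 and NAC66 in 15, 12, 9 and 5 cases. HB6 listed 84.7%, 76.3%, 59.0% and 34.4% of all genes with these numbers of other regulators. Whether the family matters was not tested. NAC5 stood in row 171 of the longer HB6 run and HB6 in row 90 of the 4501 rows of a NAC5 run. NAC66, NAC109 and NAC61 stood later, in rows 1157, 1702 and 1848. Both Golden2-like factors were linked with HB6 in both directions, with GLK44 in row 224 and G2 in row 469. HB6 stood in row 31 of 1048 in a GLK44 run. Lists other than that of HB6 held GLK44 in 14 cases and G2 in 6, where HB6 listed 82.3% and 42.0% of all genes. In G2 the HB6 gene was listed 2 times, in different runs.

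MYB factors were divided. MYB21, MYB81 and MYB121 and the MYB-related factor MYBR3 were linked with HB6 in both directions. HB6 listed 12.9%, 79.0%, 70.3% and 46.5% of all genes with as many other regulators as these, in that order. MYB21 was listed for no regulator but HB6 and itself, and stood in row 3545 of the longer HB6 run. MYB34 listed HB6 and was not listed by it, although 10 lists, its own included, held MYB34. The share of HB6 at 10 other regulators was 66.0%. MYB56, held by 4 lists other than that of HB6 (share 28.2%), and HB6 did not list each other. WRKY36 and WRKY107, of a family known for defence responses, both listed HB6, and HB6 listed neither. Of the basic helix-loop-helix factors, bHLH92 listed HB6 without being listed, and bHLH47 was listed, in row 3996, without listing HB6.

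Among the remaining regulators, Orphan42, a factor without a family in its name, was listed by HB6 and listed HB6 in turn. Its row 67 was the earliest of any regulator in the longer HB6 run, where genes of many regulators stood toward the head. Lists other than that of HB6 held Orphan42 in 15 cases. bZIP9 stood in row 2456 and listed HB6 in row 695 of 3399, from libraries compared in the same batch. EREB115, held by 13 lists other than that of HB6, stood in row 251 and did not list HB6. Zm00001d003176 and Zm00001d032024 did not list HB6 either, and were the 2 regulators besides HB6 itself that stood in the shorter HB6 run, in rows 1311 and 1273. The other 14 listed regulators stood in the longer run. Zm00001d033859, held by 1 list other than that of HB6 (share 12.9%), and HB6 did not list each other.

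**Figure D5:**
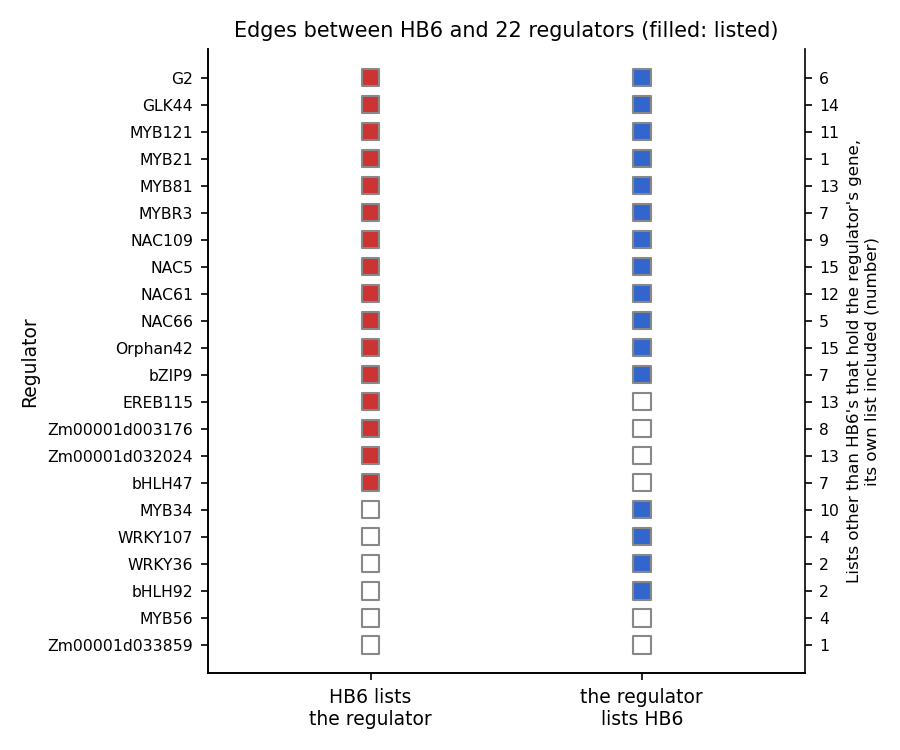
Edges between HB6 and 22 regulators (y axis): the left column is filled where HB6 lists the regulator and the right column where the regulator lists HB6, and the right axis gives how many lists other than that of HB6 hold the regulator's gene. In 12 regulators both squares are filled, and MYB56 and Zm00001d033859 have neither.

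No further HB6 target could be named. The table does not pair identifiers with symbols, and 0 of the 6677 HB6 targets matched the reference gene table, which belongs to another assembly. All 6677 HB6 targets had identifiers of the Zm00001d form. The list therefore held none of the 5 microRNA genes or the 122 genes under ENSRNA identifiers, beside 33.7% of all listed genes. ENSRNA identifiers stood in 1 of the 23 lists, and nothing is read from their absence.

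Genes with consecutive identifiers were looked at last. Of 3102 HB6 targets whose next identifier was also in the table, 1179 (38.0%) had that next gene in the HB6 list too. After the 5852 listed genes that were not HB6 targets, the next gene was an HB6 target in 32.8%. Both genes stood in the same HB6 run in 797 of the 1179 pairs (67.6%), where the sizes of both runs alone give 63.4%, and the longest stretch of consecutive identifiers in the list was 6 genes. How reads of near-identical or overlapping neighbours were divided is not stated in the sources used here, so such pairs are uncertain.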

How the data were processed

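The analysis started from the edge table that the authors deposited, with text identifiers for regulator and target and no score or other value. The submitters' processing notes name the tools featureCounts and edgeR and the genome build B73 RefGen_v4. No source used here states their versions, the aligner, the thresholds or the way conditions and batches were joined. Depth per library is unknown.

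The 94256 rows were reduced to 92485 distinct edges. Identifiers in sample titles matched 20 of 23 regulators to a plasmid. Lists were compared by counting shared genes, private genes and the number of other lists holding each gene. The counting was tested on a simulated table. Named genes are the regulators, the HB6 targets with the most regulators and the most often listed genes outside the HB6 list, 2 of each in identifier order. The 28 keyword lists of genes could not be applied without gene descriptions. Members, lists and rules were chosen with earlier results of these data known. Python 3.11.15, pandas 2.3.3, scipy 1.17.1 and matplotlib 3.10.9 were used.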

Additional observations from a re-analysis of the deposited data

How the results depend on the processing

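The shorter run of rows alone gave 1611 HB6 targets and 2 listed regulators, in place of 6677 and 16, by construction, since fewer rows were used. The longer run alone gave 5066 and 14. HB6 targets with at least 12 regulators numbered 1558; with at least 8 they numbered 3031 and with at least 18 they numbered 183, as the minimum sets. The median share of another list in the HB6 list was 54.9% in place of 53.5% among genes with at least 2 regulators, where private genes of the other lists are left out by construction. Private targets numbered 527 to 628 when each of 21 lists was left out in turn, and 785 without bZIP9, whose controls are the same libraries. They numbered 554 without the 3 regulators that no title names. Chosen after seeing the data, leaving out bZIP9 gave 82.6% in place of 82.0% for genes with at least 12 other regulators and ratios of 0.87 to 1.06 in place of 0.86 to 1.04. Stricter thresholds and leaving out replicates were not run, since edges carry no values. No paired analysis was possible because edges name genes and carry no library. Sequencing depth, not known here, bounds which genes could be listed.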
